A study of Macaca mulatta with 8 samples.

Results

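Potassium channel genes were followed in oocytes of the rhesus macaque at metaphase II, the mature egg that waits for fertilization. A group of 4 arrays carried oocytes matured in vitro, in culture, and a group of 4 arrays carried oocytes matured in vivo, in the animal. Each array held amplified RNA of a pool of 4 oocytes, and the labels name neither the animals nor the culture medium, so a p-value covers the spread among pools, which may be technical in part. Members were the probe sets with a single platform gene symbol that begins with KCN, the prefix of potassium channel subunits. They came to 112 of the 52766 non-control probe sets and to 74 of 14132 named genes.

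Potassium channels let potassium ions leave or enter a cell along their gradient and so set the resting membrane potential. Voltage-gated channels open when the membrane depolarizes, inward rectifiers pass current best near or below the potassium equilibrium potential, and K2P channels, with a pair of pore domains in each subunit, carry the leak current of a resting cell. Calcium-activated channels couple the potential to calcium inside the cell, which rises in the egg at fertilization. Silent and auxiliary subunits form no potassium pore alone and change the gating or traffic of the pore-forming ones.

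A MAS5 signal, the brightness summary of a probe set on an Affymetrix array, was called above background on an array where it exceeded the 95th percentile of the 59 unspiked AFFX controls, whose probes match bacterial genes or artificial tags. That background lay between 15.7 and 27.0 over the 8 arrays, and 0 of the 59 controls exceeded it on all 4 arrays of a group. Of the 112 KCN probe sets, 44 to 57 were above background on an in vitro array and 41 to 56 on an in vivo array. Over all non-control probe sets the share above background was 53.8% to 60.9% on in vitro arrays and 49.9% to 59.9% on in vivo arrays. Precision is limited by the 4 arrays a group.

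How many KCN genes count as above the controls depended on the rule, and the share was below that of all named genes under each of the 5 rules tried. At least 1 probe set was above background on all 4 arrays of a group for 25 of the 74 genes (33.8%), where 66.9% of all named genes met this rule. On all 8 arrays it was so for 18 genes (24.3%), against 57.6% of all named genes. With the highest control as background it was 17 genes (23.0%, against 58.3% of all). Looser rules turned the minority into a majority: 58 genes (78.4%, against 12721 of the 14132 named genes) with the median control as background, and 50 genes (67.6%, against 84.1%) where 2 of the 4 arrays of a group sufficed. At the level of probe sets, 27.7% of KCN probe sets were above background on all 4 arrays of a group, against 43.5% of all non-control probe sets. For 38 further genes a probe set was above background on some arrays without filling a group. The remaining 11 genes, KCNG4, KCNA1, KCNK7, KCNN3, KCNE5, KCNK13, KCNJ9, KCNA10, KCNC1, KCNIP1 and KCNN4, were above background on no array. A dim signal does not show that a transcript is absent, only that it was not detectable by these probes.

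**Figure D1:**
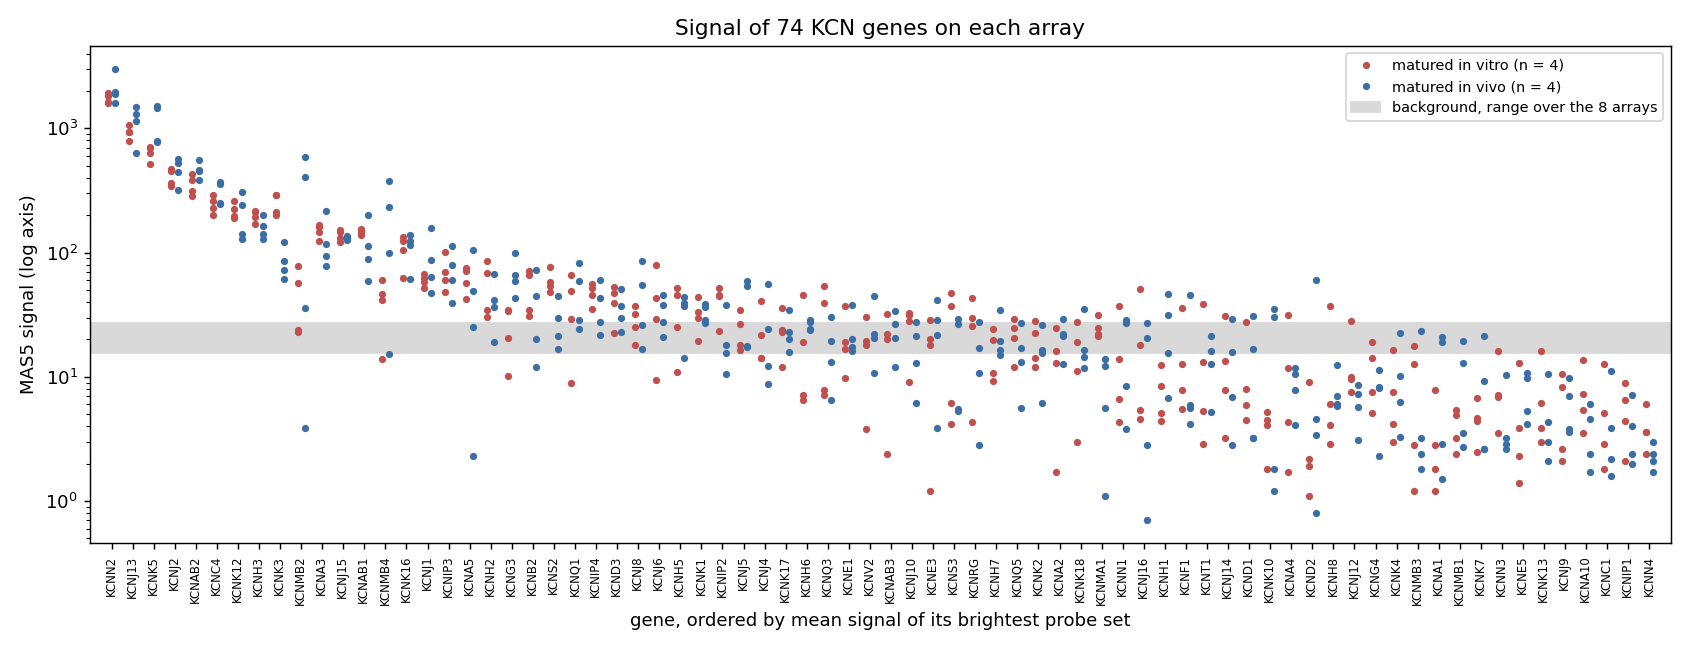
MAS5 signal (log axis) of the brightest probe set of each of the 74 KCN genes, with 4 points for arrays of oocytes matured in vitro on the left and 4 for oocytes matured in vivo on the right of each gene, and a grey band for the range of the background over the 8 arrays, 15.7 to 27.0. The signals of KCNN2, KCNJ13 and KCNK5 lie far above the band on every array, and most genes on the right of the plot scatter through or below it.

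Split by family, the genes above background on all 4 arrays of a group were 5 of 12 K2P leak channel genes, 5 of 13 inward rectifiers, 8 of 22 voltage-gated pore-forming genes and 2 of 6 silent modifiers. Of the genes for calcium- or sodium-activated channels it was 1 of 6, and of the auxiliary subunits 4 of 14. KCNRG, whose product is a regulator and no channel, had signals of 4.3 to 43.0 in vitro and 2.8 to 27.5 in vivo at its brighter probe set. Among the 28 genes with several probe sets, 16 had at least 1 above background on all 4 arrays of a group, and in 11 of these the other probe sets did not reach it. The channels read as present therefore often rest on a single probe set.

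The highest KCN signals came from KCNN2, which encodes a small-conductance calcium-activated channel. KCNN2 had signals of 1597, 1815, 1623 and 1941 on the in vitro arrays, against 1971, 1893, 1586 and 3032 on the in vivo arrays. The groups overlap, and in vivo replicate 4 is the highest array. Differences were tested with limma on log2(signal + 8.2), in vitro minus in vivo, over 26383 probe sets. The log2 fold change of KCNN2 was -0.24 (95% interval -0.67 to 0.18, limma adjusted p = 0.712). Signals of different probe sets depend on their probes, so their order is no order of transcript amounts.

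KCNJ13, an inward rectifier known from pigment epithelium of the retina, had 784, 1060, 937 and 926 in vitro, against 635, 1485, 1302 and 1141 in vivo. In vivo replicate 1 gave the lowest of the 8 values, and the in vivo arrays spread around the in vitro ones. The log2 fold change was -0.24 (95% interval -0.75 to 0.27, limma adjusted p = 0.771). The other 2 probe sets of KCNJ13 were dim, with signals of 4.4 to 44.6 in vitro and 2.1 to 19.0 in vivo, and were not tested. KCNJ2, the gene of a classical strong inward rectifier, was at 407 ± 63.4 in vitro and 464 ± 107 in vivo (SD, n = 4 each), with a log2 fold change of -0.17. KCNJ15, another inward rectifier gene, was among the steadiest, at 137 ± 13.6 in vitro and 130 ± 3.51 in vivo. Its interval for the log2 fold change ran from -0.39 to 0.52.

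Of the remaining inward rectifiers, KCNJ1, a renal channel gene, was above background on all 8 arrays, at 59.9 ± 6.66 in vitro and 88.9 ± 48.1 in vivo, where in vivo replicate 3 reached 157. KCNJ6, the gene of a channel gated by G proteins, filled the in vivo group with 21.0 to 45.5 and was above background on 3 in vitro arrays, with 9.5 to 79.2. KCNJ8, the pore subunit gene of a channel gated by ATP, was above background on 3 arrays of each group. None of the 7 inward rectifier probe sets tested passed, and their median log2 fold change was -0.24, beside 0.01 over all probe sets tested.

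**Figure D2:**
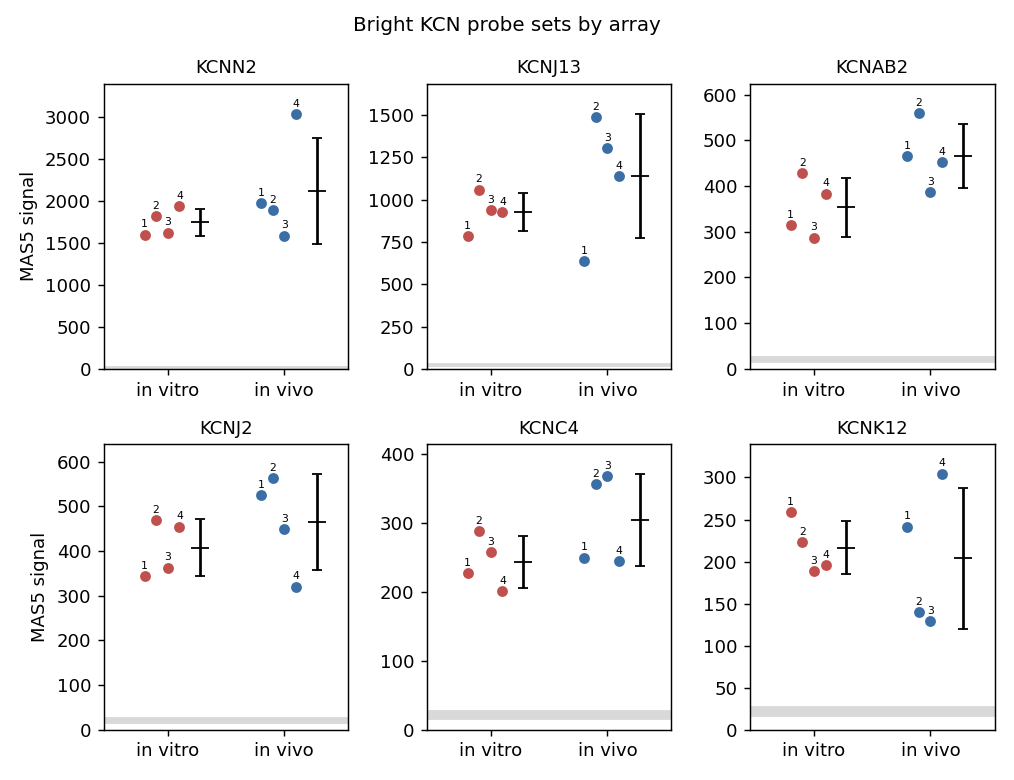
MAS5 signal of the brightest probe set of KCNN2, KCNJ13, KCNAB2, KCNJ2, KCNC4 and KCNK12 on each array, in vitro left and in vivo right; numbers are replicates, bars are means with SD (n = 4), and the grey band is the background range. The groups overlap for all 6 genes, and the lowest signal is 129, of KCNK12 on in vivo replicate 3.

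KCNK3 was the KCN gene that passed the test. It encodes an acid-sensitive K2P leak channel. KCNK3 had signals of 289, 290, 214 and 199 in the pools matured in vitro, against 61.2, 72.6, 85.2 and 122 in the pools matured in vivo. Every in vitro array lies above every in vivo array, and all 8 are above background. The means were 248 ± 48.5 in vitro and 85.2 ± 26.3 in vivo (SD, n = 4 each), a log2 fold change of 1.48 ± 0.26 (SE; 95% interval 0.93 to 2.02; 2.78-fold; limma adjusted p = 0.0359). A single probe set carries the gene. The KCNK3 result in these data was known when the gene family was chosen, so the call is no independent support.

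The call of KCNK3 was lost with most arrays left out, while the log2 fold change stayed between 1.35 and 1.65. Among the in vitro arrays, leaving out replicate 1 gave a limma adjusted p of 0.167, replicate 2 gave 0.187, replicate 3 gave 0.119 and replicate 4 gave 0.0760. Among the in vivo arrays, leaving out replicate 1 gave a limma adjusted p of 0.0522, replicate 2 gave 0.105 and replicate 3 gave 0.0564. Without in vivo replicate 4, the in vivo array with the highest KCNK3 signal, it was 0.00974. The call was also lost with median centring of the arrays (limma adjusted p = 0.0526) and without the intensity trend in the variance (0.151).

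Markers of the granulosa and cumulus cells around the oocyte moved with the groups in part. Of 15 tested, INHBA and STAR rose in vitro (limma adjusted p = 0.00226 and 0.00861) while 13 missed the threshold. Over all probe sets tested, 0.102% passed as higher in vitro and 0.0417% as lower. At an unadjusted p under 0.05, 5 of the 15 were higher in vitro and 0 lower, beside 4.7% and 5.53% of all tested. INHBA was at 1483 ± 751 in vitro and 165 ± 72.4 in vivo, and STAR at 1181 ± 490 in vitro and 191 ± 98.9 in vivo (SD, n = 4 each). The list's median log2 fold change was 0.01. The summed signal of the 16 such markers on the array was 22148.5 to 31196 in vitro and 23297 to 25860 in vivo. A few bright markers carry that sum, with SERPINE2 alone at a mean of 12488 in vitro and 13703 in vivo. The overlap of the sums therefore cannot show whether the amount of these cells differed. CYP19A1, the aromatase gene, had 103, 156, 95.9 and 58.7 in vitro, against 47.8, 295, 75.8 and 39.7 in vivo. AMH was above background on 2 in vitro and 3 in vivo arrays, and FSHR and FOXL2 were not analysed here. The part of these cells in the KCNK3 result was not tested.

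KCNK5, a K2P channel gene known for a role in cell volume regulation, leaned the other way. KCNK5 had signals of 709, 694, 518 and 635 in vitro, against 781, 1517, 787 and 1463 in vivo. The groups do not overlap, though the highest in vitro array is close to the lowest in vivo array, and the in vivo arrays fall into a lower pair (replicates 1 and 3) and a higher pair (replicates 2 and 4). The log2 fold change of -0.76 ± 0.24 (SE; 95% interval -1.28 to -0.24) did not pass (limma adjusted p = 0.308). The higher pair also had the higher ratios of 3' to 5' beta-actin control signal, 150 and 108, where in vivo replicates 1 and 3 had 75.3 and 51.2 and the in vitro arrays 51.1 to 108. The GAPDH ratio did not split the pairs, at 49.4 and 24.8 on replicates 2 and 4 and 24.6 and 20.6 on replicates 1 and 3, with 27.3 to 47.3 in vitro. The part of these ratios in the KCNK5 signals was not tested. A second, dimmer KCNK5 probe set fell below the filter, at 2.9 to 42.9 in vitro and 12.7 to 56.9 in vivo.

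The other K2P genes above background on all 8 arrays were KCNK12 and KCNK16. KCNK12, whose product gives little current on its own, was at 217 ± 31.7 in vitro and 204 ± 84.3 in vivo, and KCNK16, known from pancreatic beta cells, at 107 ± 31.8 in vitro and 110 ± 34.2 in vivo. KCNK1 filled the in vivo group with 26.9 to 38.9 and was above background on 3 in vitro arrays, at 19.5 to 43.9. KCNK10, a gene for a mechanosensitive leak channel, had 1.8 to 5.2 in vitro, and 35.3 and 30.3 on in vivo replicates 1 and 3 against 1.8 and 1.2 on replicates 2 and 4. The K2P genes KCNK2, KCNK4, KCNK17 and KCNK18 were above background on 1 to 4 arrays of the 8.

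**Figure D3:**
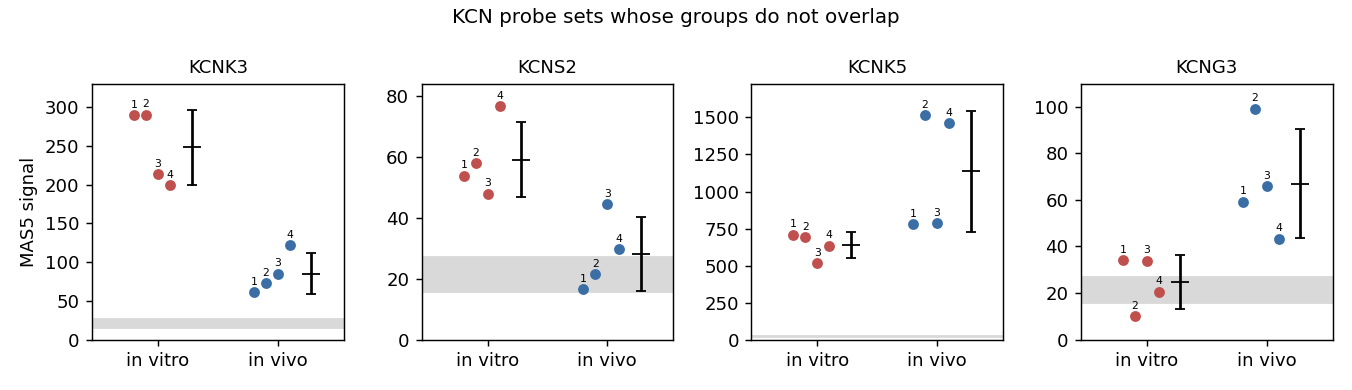
MAS5 signal of KCNK3, KCNS2, KCNK5 and KCNG3 on each array, in vitro left and in vivo right; numbers are replicates, bars are means with SD (n = 4), and the grey band is the background range. These are the 4 tested KCN probe sets whose groups do not overlap, with KCNK3 and KCNS2 higher and KCNK5 and KCNG3 lower in vitro, and KCNK3 is the one that passed the adjusted threshold.

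Silent voltage-gated subunits gave the other 2 tested probe sets without overlap, both near background. KCNS2, whose product modifies channels of the KCNB family, had 53.8, 57.8, 47.9 and 76.6 in vitro, against 16.6, 21.4, 44.5 and 29.6 in vivo. All 4 in vitro arrays and 3 in vivo arrays were above background, and in vivo replicate 3 comes close to the in vitro values. The log2 fold change was 0.93 ± 0.34 (SE, limma adjusted p = 0.366). KCNG3, another modifier of the KCNB family, had 34.2, 10.2, 33.9 and 20.6 in vitro, against 59.2, 99.2, 66.0 and 43.4 in vivo. It was above background on 2 in vitro and on all 4 in vivo arrays, with a log2 fold change of -1.22 ± 0.37 (SE, limma adjusted p = 0.288). KCNB2, a pore subunit of that family, was at 50.8 ± 21.2 in vitro and 37.4 ± 27.2 in vivo at 1 probe set and at 38.9 ± 8.43 in vitro and 32.0 ± 2.34 in vivo at the other. KCNS2 and KCNG3 each have a second probe set that was above background on no array and was not tested. It had 1.1 to 5.9 in vitro and 2.3 to 17.1 in vivo for KCNS2. For KCNG3 it had 1.9 to 9.7 in vitro and 0.7 to 2.5 in vivo. The difference of each gene thus rests on 1 of its 2 probe sets. The genes KCNF1, KCNS3 and KCNV2 were above background on 2 to 4 arrays.

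Among voltage-gated pore subunits, KCNC4, a fast channel gene of the Shaw family, was at 244 ± 37.5 in vitro and 305 ± 66.7 in vivo, with a log2 fold change of -0.30 (95% interval -0.77 to 0.17). KCNH3, of the ether-a-go-go family, was at 198 ± 21.8 in vitro and 158 ± 30.6 in vivo, with 0.32 (95% interval -0.15 to 0.79). KCNA3, a Shaker family gene known from T lymphocytes, had 166, 123, 146 and 161 in vitro, against 78.2, 93.1, 116 and 217 in vivo at its brighter probe set. In vivo replicate 4 holds the highest value and the other in vivo arrays lie below the in vitro ones. Its second probe set gave 81.5 ± 8.80 in vitro and 62.1 ± 32.0 in vivo, with log2 fold changes of 0.32 and 0.48 for the pair.

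The cardiac channel genes of this family were dim. KCNH2 and KCNA5 filled the in vitro group and were above background on 3 in vivo arrays, at 54.6 ± 26.7 in vitro and 41.1 ± 19.8 in vivo for KCNH2 and 61.4 ± 14.7 in vitro and 45.5 ± 44.3 in vivo for KCNA5. KCNQ1 filled the in vivo group, at 38.3 ± 24.5 in vitro and 48.6 ± 27.3 in vivo. KCND3 was above background on all 8 arrays with 22.7 to 53.3 in vitro and 22.9 to 51.2 in vivo. None of the 12 voltage-gated pore subunit probe sets tested passed. Of them, 9 had a positive log2 fold change and 3 a negative one, where 50.7% of all probe sets tested were positive. Their median was 0.27, beside 0.01 over all probe sets tested. KCNA3, KCNB2 and KCNC4 each enter with 2 probe sets, so the 12 do not stand for 12 genes.

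Among the auxiliary subunits, the 4 genes above background were KCNAB1, KCNAB2, KCNIP3 and KCNIP4, all of them partners of voltage-gated channels. KCNAB2 encodes a cytosolic beta subunit related to aldo-keto reductases. Its brightest probe set was at 353 ± 64.5 in vitro and 466 ± 70.8 in vivo, with a log2 fold change of -0.40 (95% interval -0.83 to 0.04, limma adjusted p = 0.529). The next KCNAB2 probe sets had -0.19 and 0.71, so they differ in sign, and the fourth was too dim to be tested. KCNAB1, a related beta subunit, had 148, 144, 154 and 138 in vitro, against 59.0, 202, 113 and 89.3 in vivo. The in vitro arrays lie close together and the in vivo ones spread around them, and the log2 fold changes of its probe sets were 0.44 and 0.66. KCNIP3 and KCNIP4, calcium-binding partners of the KCND channels, were above background on all 8 arrays, with log2 fold changes of -0.01 and 0.31, and KCNIP2 was above background on 3 in vitro and 2 in vivo arrays, with 0.83 (limma adjusted p = 0.504). The KCNE genes KCNE1, KCNE3 and KCNE5 filled neither group.

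The BK channel, a large-conductance channel opened by calcium and depolarization, is built from KCNMA1 pores and KCNMB beta subunits. KCNMB4 had 13.9, 41.8, 59.7 and 46.5 in vitro, against 375, 100, 234 and 15.2 in vivo. In vivo replicates 1 and 3 are high and in vivo replicate 4 is below background, so the groups overlap. The log2 fold change was -1.46 ± 0.66 (SE, limma adjusted p = 0.474), and it was -0.92 when in vivo replicate 1 was left out. Without in vivo replicate 4 it became -2.26 with a limma adjusted p of 0.0442. That array is the in vivo array that goes against the difference, so this p is no support for it. Leaving the same array out also raised the calls over all probe sets from 38 to 97. The 3 other KCNMB4 probe sets were too dim to be tested, at 3.7 to 28.0 in vitro and 0.9 to 52.8 in vivo.

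KCNMB2 showed the same arrays apart, with 78.0, 57.4, 23.8 and 22.9 in vitro, against 407, 36.1, 590 and 3.9 in vivo. Its SE of 0.93 on the log2 scale was the largest among the tested KCN probe sets (log2 fold change -1.14, limma adjusted p = 0.714). Leaving out in vivo replicate 1 gave -0.49, in vivo replicate 3 gave -0.32 and in vivo replicate 4 gave -2.19, and none of these passed. In vivo replicates 1 and 3 are the arrays with the lower beta-actin ratios of their group. Of the 16 stroma, endothelium and blood markers on the array, 4 (COL1A2, DCN, CD68 and CD14) had both of these arrays above in vivo replicates 2 and 4 at their brightest probe set, and 12 did not. The share of all probe sets with this order was not taken, so the count is no result about these markers. On in vivo replicates 1 and 3, COL1A2 was near background at 22.5 and 18.9, and CD14 was dim at 37.9 and 31.9. The summed signal of the 16 was 1133 to 1734 in vitro and 1253 to 1444 in vivo. Of that sum, CDH5 alone had a mean of 475 in vitro and 540 in vivo. The part of these values in the KCNMB signals was not tested. KCNMA1, the pore subunit, stayed near background: 1 probe set had 21.2, 31.4, 24.7 and 22.2 in vitro, against 13.8, 1.1, 5.6 and 12.3 in vivo. A second KCNMA1 probe set had 19.2 to 22.1 in vitro and 2.6 to 18.2 in vivo. The third was below background on all arrays and overlapped, at 7.33 ± 3.57 in vitro and 10.6 ± 5.90 in vivo. The first and second had groups that do not overlap, yet neither was bright enough to be tested. They were above background on 2 and 1 in vitro arrays and on 0 in vivo arrays. Groups without overlap were seen at 2 of the 75 untested KCN probe sets, both of KCNMA1, beside 6.28% of all probe sets tested. The share over all untested probe sets was not taken.

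**Figure D4:**
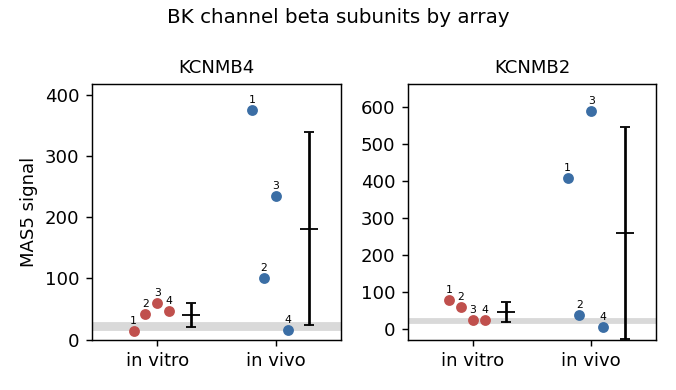
MAS5 signal of the brightest probe set of the BK beta subunit genes KCNMB4 and KCNMB2 on each array, in vitro left and in vivo right; numbers are replicates, bars are means with SD (n = 4), and the grey band is the background range. In both genes in vivo replicates 1 and 3 are the highest arrays and in vivo replicate 4 lies below background.

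Over the family, 37 of 112 KCN probe sets, for 31 genes, were bright enough to be tested, and 75 were not. Of the 37, 1 passed a limma adjusted p of 0.05, against 0.144% of all probe sets tested. It was 1 higher in vitro, beside 0.102% of all tested, and 0 lower, beside 0.0417%. The 1 was KCNK3, whose result in these data was known when the gene family was chosen. These counts are therefore no support for a change of the family, and KCNK3 also enters the counts that follow. At an unadjusted p under 0.05 there were 5, or 13.5%, where 10.2% of all probe sets tested reached it. Of these, 2 were higher in vitro (4.7% of all tested) and 3 lower (5.53%). Groups without overlap were seen at 4 of the 37 (10.8%), beside 6.28% of all tested, with 2 higher in vitro (3.17%) and 2 lower (3.11%). The log2 fold changes were positive at 19 and negative at 18, with a median of 0.01, as over all probe sets tested. The SE of a KCN log2 fold change had a median of 0.34.

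**Figure D5:**
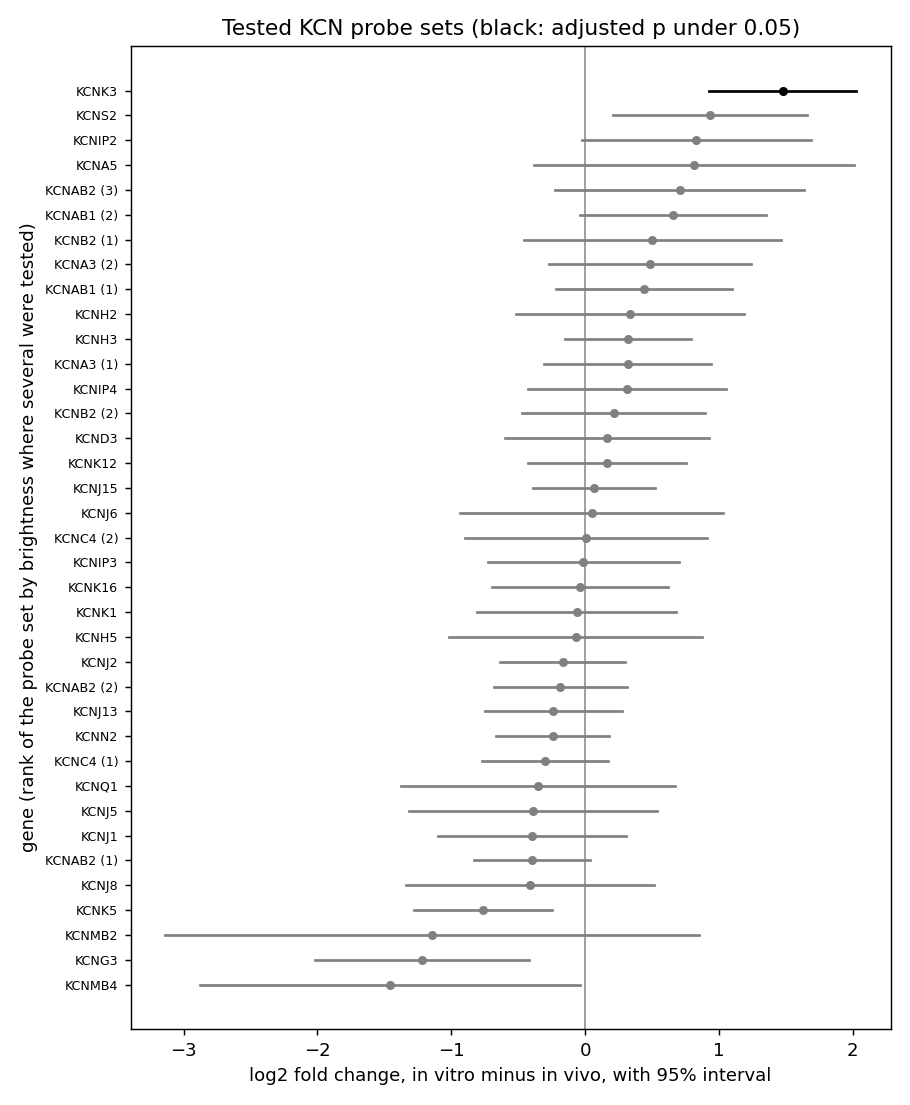
Log2 fold change, in vitro minus in vivo, with its 95% interval from limma, for the 37 tested KCN probe sets ordered by size; a number in brackets ranks the probe sets of a gene by brightness. KCNK3 at 1.48 (black) is the one with an adjusted p under 0.05, and KCNS2, KCNK5, KCNG3 and KCNMB4 are the others whose interval excludes 0.

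Other genes of potassium transport passed the test in neither direction. Of all probe sets tested 0.144% passed. A count of 0 in this short list, or in the pump and channel lists below, therefore says little about these genes. Of 31 partner genes of potassium channels, 18 were on the array under their symbol and 16 were tested at their brightest probe set, with 0 higher, 0 lower and a median log2 fold change of -0.14. Their smallest p was that of TMEM175, a potassium channel gene of the lysosome without the KCN prefix, with 14.5, 17.5, 37.0 and 4.5 in vitro, against 178, 73.4, 99.5 and 50.2 in vivo. Every in vivo array lies above every in vitro array, and 1 in vitro array was above background (log2 fold change -2.04 ± 0.44 SE, limma adjusted p = 0.104). TMEM175 entered the test through its in vivo signals, so neither this p nor the 0.0464 reached when in vivo replicate 4 was left out is support for a difference, and the fold change depends on the pseudocount. LRRC52, an auxiliary subunit gene of the sperm potassium channel, had 0.69, and the anchoring protein gene AKAP9 had -0.74.

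Of 34 genes for sodium-potassium pumps and potassium cotransporters, 23 were on the array under their symbol and 14 were tested, with 0 higher, 0 lower and a median of 0.06. SLC12A5, a potassium-chloride cotransporter gene known from neurons, had 1480, 1661, 1580 and 1553 in vitro, against 934, 794, 687 and 946 in vivo. The groups are well apart, and the log2 fold change of 0.91 ± 0.17 (SE) narrowly missed the threshold (limma adjusted p = 0.0551). The limma adjusted p was 0.0258 without in vivo replicate 4. Leaving out that array raised the calls over all probe sets from 38 to 97, so the lower value is not particular to this gene. FXYD6, a regulator of the pump, was at 126 ± 8.58 in vitro and 213 ± 50.2 in vivo, with -0.70, and the cotransporter gene SLC12A8 had -0.73. The pump subunit gene ATP1B1 was at 5625 ± 326 in vitro and 5966 ± 2758 in vivo at its brightest probe set, with 0.03. Its other tested probe sets had -0.61, -0.25 and -0.75, so they differ from the brightest in sign, and none passed. Of 52 sodium, calcium and chloride channel genes 24 were tested, with 0 higher and 0 lower, and the chloride transporter gene CLCN3 had 0.69 (limma adjusted p = 0.277) and the volume-regulated channel gene LRRC8A had -0.51 (0.337).

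Of the 12 listed oocyte markers on the array, 0 were called, beside 0.144% of all probe sets tested. At an unadjusted limma p under 0.05, 0 were higher in vitro and 1 lower, beside 4.7% and 5.53% of all tested. That 1, NLRP5, had 793, 1228, 1271 and 1221 in vitro, against 1540, 1832, 3929 and 2392 in vivo. Its log2 fold change was -1.03 (limma adjusted p = 0.204). On all 8 arrays 11 of the 12 were above background. The exception was NOBOX, a transcription factor gene of the oocyte, with 42.7, 50.2, 68.1 and 24.0 in vitro, above background on all 4 arrays, against 18.7, 29.9, 45.4 and 8.8 in vivo, above it on 2. Of 11 tested markers of stroma, endothelium and blood, none passed, beside 0.144% of all probe sets tested. At an unadjusted limma p under 0.05, 1 was higher in vitro and 1 lower. The higher was TAGLN (log2 fold change 1.82, limma adjusted p = 0.244), with in vitro replicate 1 far above the others at 617. The lower was DCN (-1.85, 0.274), whose other tested probe sets had 0.75, 0.55 and -0.11. Fewer oocytes with a transcript and less of it in each oocyte cannot be told apart in pools.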

How the data were processed

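The authors deposited array intensities made with MAS5, per the submitters' processing notes, unlogged as the values show; program version and scaling target are not given in the sources used here. Per the labels' protocols, RNA of 4 oocytes went through 2 rounds of amplification. The trimmed mean of each array was 150. Of 112 KCN probe sets, 109 had an Entrez identifier in the macaque RefSeq gene table, and 0 symbols changed. No coordinates or sequences are given.

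Values were taken as log2(signal + 8.2), 8.2 being the 25th percentile of non-control signals, so folds of dim transcripts come out too small. The 26383 probe sets in the upper 50% by mean log2 value were tested with limma 3.58.1 in R 4.3.3 (lmFit, eBayes with intensity trend) and Benjamini-Hochberg adjustment. On simulated data, 18.0% of probe sets changed 2-fold, 76.0% at 4-fold, 98.0% at 8-fold and 94.0% at 16-fold were recovered among 26383, with 10 false calls of 153. Each fold was given to 50 probe sets on the log2(signal + 8.2) scale, with independent normal noise. A dim probe set needs a larger fold of signal to reach the same step on that scale, so its recovery would be lower.

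Members and lists were chosen with earlier results of these data known. Named were KCNK3, the 8 KCN probe sets per direction with the smallest p, the 12 brightest genes, genes above background on all 4 arrays of a group and at most 1 of the other (0 genes), and up to 4 members per list; others serve to account for the family. Alternatives were other pseudocounts, filters, normalizations, variance models, backgrounds, a replicate block and each array left out.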

Additional observations from a re-analysis of the deposited data

How the results depend on the processing

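The count of 1 KCN probe set passed became 0 with median centring, without the intensity trend and with the replicate block, and lay between 0 and 2 with an array left out, the second being KCNMB4. The KCNK3 log2 fold change of 1.48 was 1.42 with median centring (limma adjusted p = 0.0526), 1.48 without the intensity trend (0.151), 1.48 with the replicate block (0.0901) and 1.35 to 1.65 with an array left out. It passed under 8 of 18 alternatives, with adjusted p from 0.00874 to 0.187. The 38 calls over all probe sets became 10 without the intensity trend, 88 with array weights, 43 with the replicate block, and 18 to 97 with an array left out (21 without in vitro replicate 2 or 3, 71 without in vivo replicate 1). Same-numbered arrays did not deviate together over the tested probe sets (r = -0.0467 to 0.0155), so no pairing by replicate number was seen. A shared factor that acts on few genes would escape this check. The 25 KCN genes above background (33.8%, against 66.9% of all genes) became 58 with the median control (78.4%, against 12721 of 14132 genes), 50 with 2 of 4 arrays sufficing (67.6%, against 84.1%) and 17 with the highest control (23.0%, against 58.3%), and 26 to 28 with an array left out. The KCNK12 log2 fold change of 0.16 lay between -0.019 (without in vivo replicate 3) and 0.38 with an array left out. SLC12A5 passed with the median-signal pseudocount (0.0487), the upper-quarter filter (0.0407), a robust trend (0.0498) and array weights (0.0164), and TMEM175 with median centring (0.0436). The causes were not tested. INHBA and STAR lost their calls without the intensity trend (0.0508 and 0.134), and STAR also without in vitro replicate 1 (0.0563), 2 (0.0518) or 3 (0.0590). For 44 further named probe sets 772 values could be had over 18 alternatives: 757 kept their direction and side of the threshold, 5 lost the call, 9 gained it and 1 reversed. Left-out arrays shrink the groups to 3, and dim probe sets limit most KCN genes.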
